A study of Rattus norvegicus with 60 samples.

Results

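The bled-side popliteal lymph node of 11 rats was set against the contralateral popliteal lymph node of the same 11 rats, 22 arrays of the 60 in the series. The arrays were chosen by their titles, which name the knee (injured or contralateral), the tissue and the rat code K1 to K11. All of these rats have hemophilia A and were killed 24 h after a bleed was induced in 1 knee joint. The source labels place the bled side on the left and the contralateral node on the right in every rat, so side of the bleed and side of the body cannot be told apart. The nodes of 9 sham-operated hemophilia A rats, C1 to C9, 1 right-side node each, served as rats with no bleed, and the knee tissue of K1 to K11 (22 arrays) as the tissue in which the bleed took place. Each array held the RNA of 1 node or 1 knee, and age, sex, strain and time of day of collection are not given in the sources used here.

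A popliteal lymph node receives lymph from the knee and lower leg, and antigen, cytokines and migrating cells reach it through afferent vessels. Macrophages of the sinuses filter that lymph, B cells sit in follicles, T cells in the paracortex, and plasma cells in the medullary cords. Blood-borne mediators reach the nodes of either side. Haem from lysed red cells induces haem oxygenase, and haptoglobin-bound haemoglobin is taken up by Cd163 on macrophages.

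The values were log2 intensities after RMA (robust multi-array average) for 36685 probe sets, with medians between 5.69 and 5.80 over the 22 node arrays. The tissue label fitted most of the markers. The B cell gene Ms4a1 read 11.02 to 11.52 in bled-side nodes and 11.10 to 11.52 in contralateral nodes, against a median of 5.15 in knee tissue. Glycam1, a product of high endothelial venules, read 12.15 to 12.84 and 12.50 to 12.80 in bled-side and contralateral nodes. Madcam1, also a vessel marker, stayed at 4.88 to 5.68 and 5.19 to 5.65, close to its knee median of 5.45. Adipocyte genes were present in every node, with Adipoq (adiponectin) at 7.92 to 10.52 in bled-side nodes and 9.75 to 10.65 in contralateral nodes. The muscle genes Acta1 and Ckm stayed below 7.2 in all 22 nodes. No bled-rat array stood apart, but among the sham nodes C9 and C2 had mean correlations with the other sham nodes of 0.960 and 0.976, and the remaining 7 started at 0.984.

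No gene was called as different between the bled-side and the contralateral node. The limma test paired by rat called 0 of 36685 probe sets at an adjusted p under 0.05 (0% called), with a smallest adjusted p of 0.65, and 2150 had an unadjusted p under 0.05 (5.86%). Of those 2150, 1053 (2.87%) were higher in the bled-side node and 1097 (2.99%) were lower. The absolute side difference had a median of 0.05 log2 units and a 99th percentile of 0.33 over all probe sets, and 3 probe sets exceeded 2-fold.

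How large a side difference these nodes could still hold is given by the 95% intervals. The median half-width was 0.14 log2 units (1.11-fold), and the 95th percentile was 1.28-fold. The whole interval lay within 1.5-fold either way for 35628 probe sets (97.1%) and within 2-fold for 36590 (99.7%). With 1 probe set per gene, 18088 of 18166 named genes (99.6%) stayed within 1.5-fold, and 11 genes had an interval that crossed 2-fold. Adipoq, the lipogenic regulator Thrsp and Car3, a carbonic anhydrase abundant in fat and muscle, were among these 11. The others were the immunoglobulin gene Igkvl3 and 7 unnamed loci, of which LOC690044 had the widest reach (-0.93 log2 units, 95% interval -2.08 to 0.22).

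Genes that mark the bled joint were followed one by one. Il6, an inflammatory cytokine, read 5.79, 6.13 and 7.61 (lowest, median, highest) in bled-side nodes and 5.77, 6.06 and 7.58 in contralateral nodes. Its side difference was 0.23 (SE 0.17, 95% interval -0.13 to 0.59), and 6 of 11 rats were higher on the bled side. The groups overlapped almost entirely, with K7 high on both sides and K8 and K11 high on the bled side alone. Il1b, another inflammatory cytokine, differed by 0.11 (-0.12 to 0.34), higher in 7 of 11 rats, and Tnf by -0.06 (-0.20 to 0.07), higher in 4.

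Ccl2, which recruits monocytes, gave the largest difference of the followed genes. It read 8.39, 9.53 and 10.69 in bled-side nodes and 8.45, 8.85 and 9.87 in contralateral nodes, a difference of 0.42 (0.03 to 0.81), higher in 7 of 11 rats. Its unadjusted p was 0.035 and its adjusted p 0.85, so it was not called. Rats K2, K7, K9 and K11 were about 1 log2 unit or more higher on the bled side, and K4 was lower there.

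Hmox1, the inducible haem oxygenase, varied far more between rats than between sides. It read 7.99, 10.48 and 11.75 in bled-side nodes and 8.26, 10.08 and 11.23 in contralateral nodes, with a side difference of 0.02 (-0.34 to 0.38). K6 was lowest and K8 and K11 highest on either side. Arg1 (arginase) and Mmp3 (stromelysin) stayed below 5.5 in all 22 nodes, with side differences of 0.02 (-0.22 to 0.26) and 0.11 (-0.06 to 0.29).

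**Figure D1:**
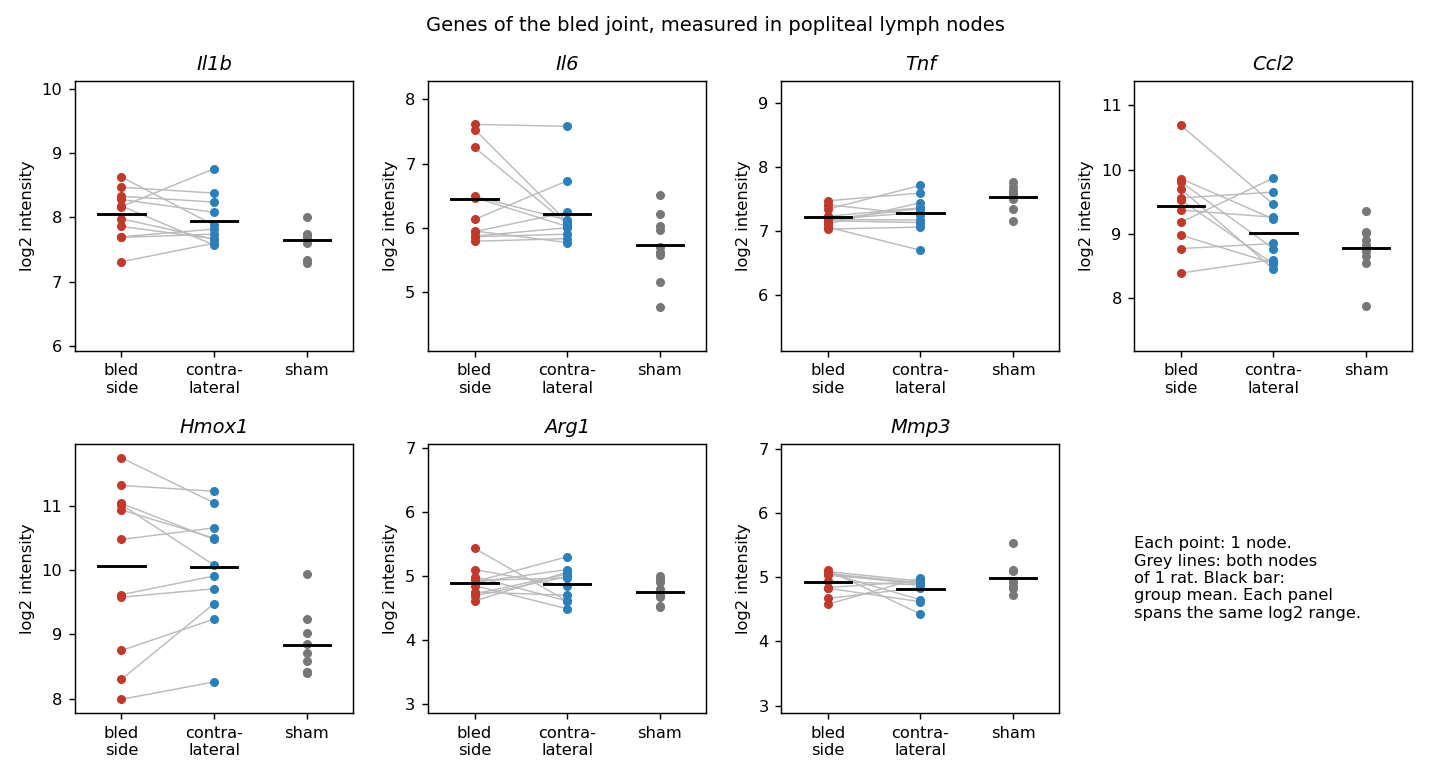
Log2 intensity of the 7 followed genes in bled-side (n = 11), contralateral (n = 11) and sham (n = 9) nodes. Points are nodes, grey lines join the nodes of 1 rat and black bars are means; the bled-side and contralateral points overlap in every panel, and Hmox1 spreads over more than 3 log2 units between rats.

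None of the 28 lists had a called member, and their bounds differed in width. The interval reaching furthest from 0 ended at 1.36-fold for 18 neutrophil genes (Mmp8) and for 24 macrophage genes (Vsig4). It ended at 1.21-fold for 23 T cell genes (Thy1) and at 1.28-fold for 17 dendritic cell and costimulatory genes (Cacnb3). It reached 1.46-fold for 19 B cell genes (Rgs13), 1.4-fold for 16 plasma cell genes (Tnfrsf17) and 1.48-fold for 31 interferon-stimulated genes (Isg15). Among 11 red cell genes it was 1.48-fold (Hba-a3), with a list median of -0.05. Wider bounds held for 18 immunoglobulin genes (2.33-fold, Igkvl3), 39 rat MHC genes (1.54-fold, RT1-T24-1), 14 mast cell and eosinophil genes (1.52-fold, Mcpt1) and 20 inflammatory cytokine genes (1.51-fold, Il6).

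Of 33 chemokine genes, 3 had an unadjusted p under 0.05, all higher in the bled-side node: Ccl2, the neutrophil attractant Cxcl2 (0.18) and Ccl4 (0.16). Ccl7, a monocyte attractant, differed by 0.45 (-0.03 to 0.92), the widest reach in the list at 1.90-fold. The list's median difference was -0.004, against 0.003 for all probe sets. Of 22 immediate-early genes 3 were higher at an unadjusted p under 0.05, Ier3 by 0.24, Fosb by 0.15 and Myc by 0.10. Fos reached 1.86-fold (0.28, -0.34 to 0.89). Over all probe sets 2.87% were higher at that unadjusted p, the share to set beside both lists.

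The adipocyte list had the lowest median difference of the 28 lists. Of 24 adipocyte genes, 6 were lower in the bled-side node at an unadjusted p under 0.05 and none higher, with a list median of -0.20. Over all probe sets 2.99% were lower and 2.87% higher at that unadjusted p. Adipoq averaged 9.64 ± 0.79 in bled-side and 10.2 ± 0.32 in contralateral nodes (SD, n = 11 each), a difference of -0.57 (-1.07 to -0.08, unadjusted p = 0.026). K10 and K1 were low on the bled side, at 7.92 and 8.60, against 10.21 and 10.31 in their contralateral nodes. The mean of the list ran from 7.23 to 8.54 in bled-side nodes and from 8.03 to 8.57 in contralateral nodes.

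Node stromal genes had a list median of -0.03. Col14a1, a fibril-associated collagen, differed by -0.34 (-0.52 to -0.17, unadjusted p = 0.00094), Col1a1 (type I collagen) by -0.34 and Lum (lumican, a collagen-binding proteoglycan) by -0.27. With Col3a1 at -0.23, 4 of 20 stromal genes had an unadjusted p under 0.05, all lower in the bled-side node. Over all probe sets 2.99% were lower at that unadjusted p. The others lay between -0.11 (Tnfsf11, a cytokine of stromal cells) and 0.16 (Ccl19, a T cell attractant). With the adipocyte mean as a covariate Col14a1 came to -0.35, Lum to -0.33 and Col1a1 to -0.32, and Col3a1 came to -0.21 with an unadjusted p of 0.071. No member of either list was called.

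The genes with the smallest p-values, taken at 1 probe set per gene, differed the same way in at least 10 of 11 rats. These genes, and the Rnase4 probe set below, were chosen for small paired p-values. Agreement among rats follows largely from that choice, so nothing is read from the counts of rats. Mettl21a, a protein methyltransferase, averaged 6.67 ± 0.13 in bled-side and 6.49 ± 0.13 in contralateral nodes and was higher in 11 of 11 rats (0.18, 0.11 to 0.26). Aen, a nuclease induced by p53, and Scand1 were higher in 11 of 11 rats by 0.20 and 0.18, and Ghrhr and Obox1 in 10 by 0.16 and 0.18. Or9g20, an olfactory receptor gene, was lower in 11 of 11 rats (-0.44, -0.62 to -0.27), as was Reep6, a membrane-shaping protein of the endoplasmic reticulum (-0.22). Filip1l, Fgf1 and Sod3, the extracellular superoxide dismutase, were lower in 10 of 11 rats by -0.22, -0.20 and -0.40. Their adjusted p-values ran from 0.65 to 0.85, so none was called. The smallest p of all probe sets, 3.7e-05, belonged to a dim probe set of Rnase4, a secreted ribonuclease, that averaged 4.65 in bled-side and 4.37 in contralateral nodes (0.29, 0.19 to 0.39, higher in 11 of 11 rats). The brighter Rnase4 probe set, at 10.05 and 10.25, went the other way (-0.20, -0.36 to -0.05).

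The knees of the same rats gave the scale for these bounds. Arg1 differed between bled and contralateral knees by 5.94 log2 units, Il6 by 5.75, Hmox1 by 4.03, Ccl2 by 3.86, Il1b by 3.19 and Mmp3 by 2.26, each with a limma adjusted p of 8.3e-06 or less, and Tnf by 0.36 (adjusted p = 0.0097). Within rats, the node's side difference was smaller than the knee's by 5.93 for Arg1 (SE 0.22, adjusted p = 4.3e-09) and by 5.52 for Il6 (SE 0.27, adjusted p = 2.1e-08). Over all probe sets 11362 were called in this comparison (31%). All 28 genes taken as leading the bled knee were among them, and that list was chosen for its knee differences, so nothing is read from this count. Fgf23, which lowers blood phosphate, differed by 4.96 in knees and by 0.11 in nodes (-0.48 to 0.70). Sult1a1, a sulfotransferase, was lower in bled knees by -5.75 and in bled-side nodes by -0.40 (-0.79 to -0.01). Hmox1 read 11.60 to 12.42 in bled knees and 7.84 to 8.75 in contralateral knees, and the nodes of either side spanned most of the gap between them.

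**Figure D2:**
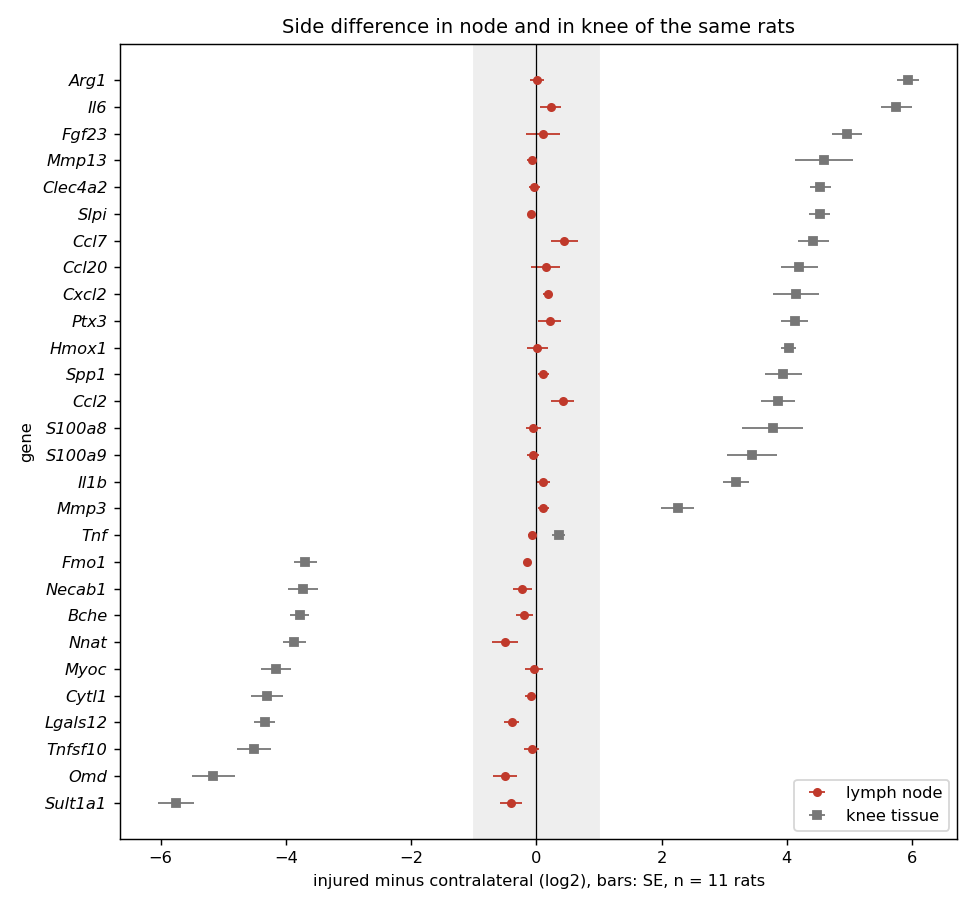
Side difference (injured minus contralateral, log2) of 28 genes chosen for their change in the bled knee, in lymph nodes and in knee tissue of the same 11 rats. Bars are SE and the grey band marks 2-fold; all node values lie inside the band, from -0.50 to 0.45, and the knee values spread from -5.75 to 5.94.

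The nodes of 1 rat resembled each other once group means were removed. When each array was reduced to its deviations from its group mean, the nodes of the same rat correlated at 0.12 to 0.32 over 36685 probe sets (mean 0.233). The 110 pairings of different rats ran from -0.22 to 0.20 (mean -0.023). Removal of the group means pulls that mean below 0 when own pairs correlate, so it is not an independent comparison value. Each of the 11 bled-side nodes was closest to its own contralateral node, and each of the 11 contralateral nodes to its own bled-side node. Without removal of the group means, the nearest of the other 21 arrays was the same rat's other node for 15 of 22 arrays. The plain r was then 0.9896 to 0.9917 for own pairs and 0.9840 to 0.9918 for bled-side nodes against contralateral nodes of other rats. No random re-pairing of the rats reached the observed mean (permutation test of pairings, one-sided, 100000 resamples, p = 1e-05, the smallest they can give; highest re-paired mean 0.166). K3 and K11 had the closest nodes, at 0.32 and 0.31, and K5 and K7 the least alike, at 0.12 and 0.13. Array batch, extraction day and scan day are not given in the sources used here, so a rat and a batch that its nodes shared cannot be told apart.

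**Figure D3:**
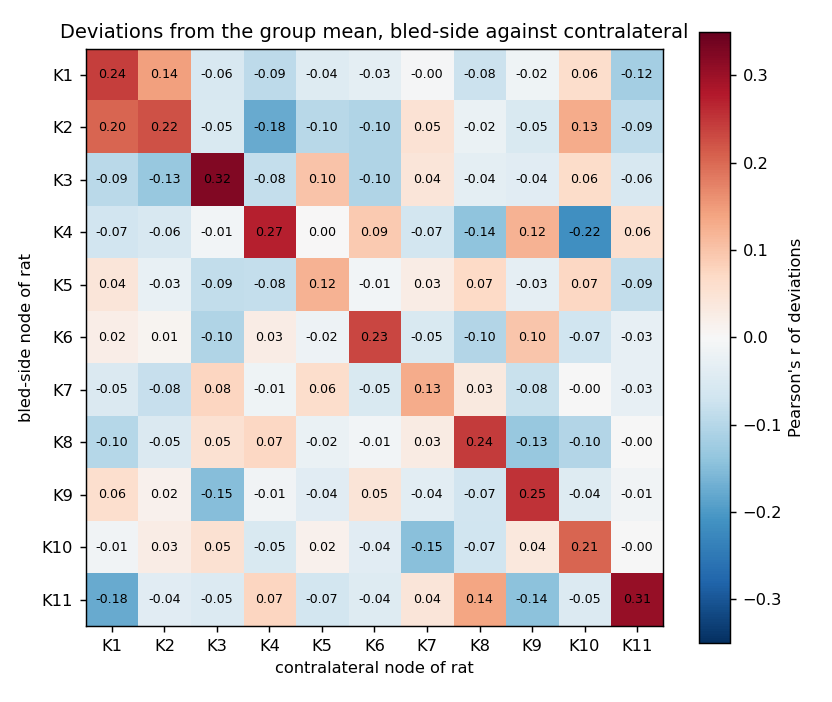
Pearson's r of deviations from the group mean over all probe sets, for each bled-side node (rows) against each contralateral node (columns). The diagonal, where both nodes come from 1 rat, holds the highest value of every row and column, from 0.12 to 0.32.

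Which genes set 1 rat's nodes apart was asked with an F test of the rat term. It called 1906 probe sets (5.2%) and 1269 of 18166 named genes (6.99%), of which 435 differed by at least 1 log2 unit between the lowest and the highest rat. The share of variance that lay between rats had a median of 0.295 over named genes, and 144 genes exceeded 0.9. Fitted and adjusted over 1 probe set per gene alone, the test called 2522 of the 18166 (13.9%). Every rat here had bled, so these are differences among bled rats.

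Among the named genes called with a range of at least 1 log2 unit, Acadsb, a dehydrogenase of branched-chain acid breakdown, had the highest share, 0.991. The mean of its nodes ran from 6.63 in K2 to 8.27 in K6, and no rat's nodes differed by more than 0.12. Sham nodes spanned a like range, 6.61 to 8.23. Zfp189, a zinc finger protein, had a share of 0.982 and a range of 1.07 between rats.

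Several genes fell into separate levels. Gbp6, an interferon-induced GTPase, read 6.96 and 7.28 in the bled-side nodes of K9 and K6 and 7.18 and 7.13 in their contralateral nodes, and at least 9.01 in the nodes of the other 9 rats. Klrc3, a lectin-like receptor of NK cells, read at most 4.26 in all nodes of K4, K6, K8, K9 and K11 and at least 6.08 in those of the other 6 rats. Fam111a, a protease that restricts viruses in human cells, read 5.91 and 6.50 in the bled-side and contralateral nodes of K9, and 6.94 and 7.31 in those of K10. Nodes of sham rats fell at like low and high levels for these genes, from 6.70 to 9.71 for Gbp6, from 3.44 to 7.27 for Klrc3 and from 6.59 to 9.89 for Fam111a.

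Pira2, a receptor of myeloid cells, had low values in the same 4 rats in node and knee. Its node values in K3, K4 and K7 were 4.50, 4.13 and 4.86 on the bled side and 4.46, 4.20 and 4.54 on the contralateral side. K11 read 5.62 and 5.73 on the bled and contralateral sides, below every node of the other 7 rats. In bled knees the same K3, K4 and K7 read 5.27, 5.94 and 5.77 and K11 6.57, against at least 8.56 in the other 7 rats. In knees the rat term called 23 probe sets (0.0627%), 22 of them also called in nodes, which is 95.7% of the knee calls and 1.15% of the node calls. The 6 named genes among these 22 were Pira2, Spmap2l, RGD1563962, LOC100362296, Rnf144a and the clock gene Npas2.

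Other genes of highest share with a range of at least 1 log2 unit were Cd8b (0.976), a chain of the T cell co-receptor, Efnb2 (0.974), an ephrin of vessels, LOC100910497 (0.972), Nlrx1 (0.965), Myh6 (0.964), Tlr12 (0.963), Ddit4 (0.962), Naip5 (0.960) and Htr1f (0.958). Myh6, a myosin of heart muscle, read between 6.60 and 7.72 in all nodes of K4, K5 and K9 and at most 5.32 in those of the other 8 rats. Naip5, a sensor of bacterial flagellin in the mouse, had rat means from 7.39 to 9.23, lowest in K9 and highest in K2.

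**Figure D4:**
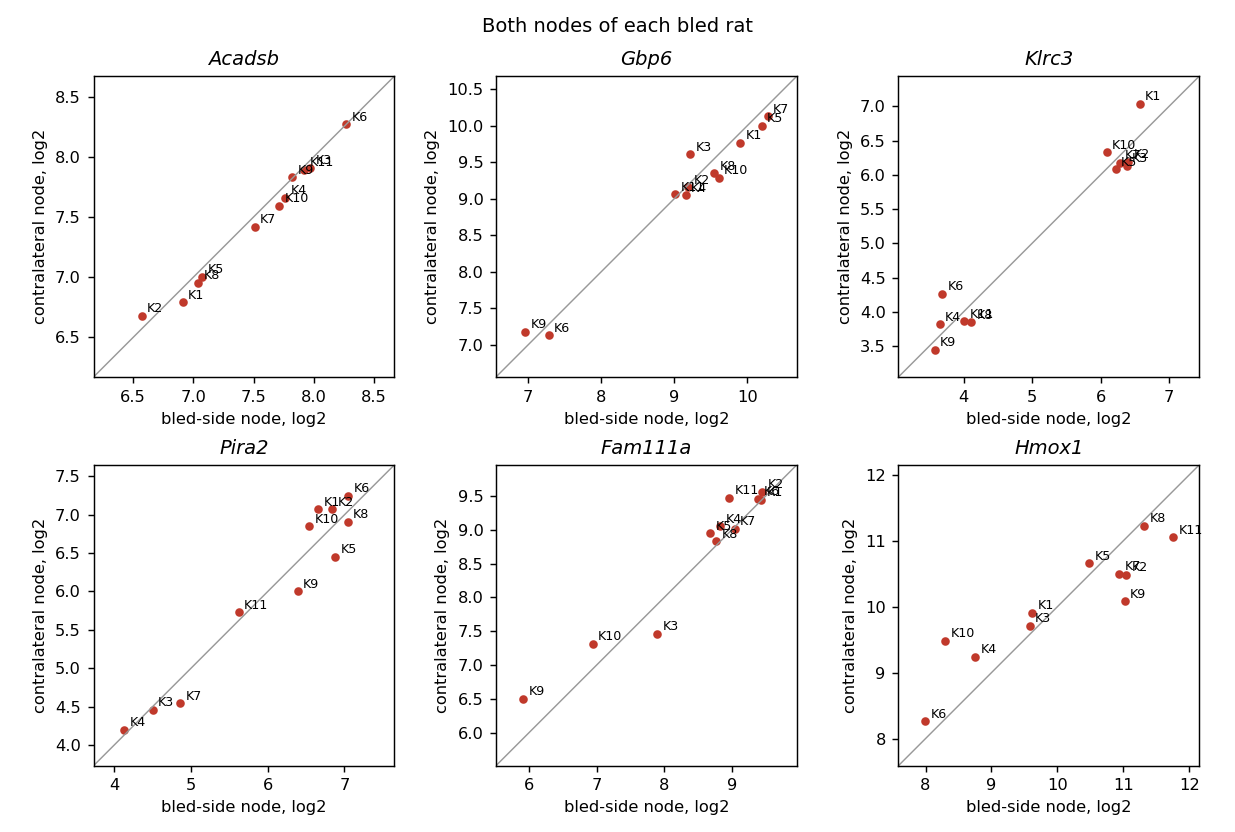
Log2 intensity of 6 genes in the bled-side node (horizontal) and the contralateral node (vertical) of each of 11 rats, with the line of equality. Points lie along the line for Acadsb, Gbp6, Klrc3, Pira2 and Fam111a and scatter more for Hmox1, whose share between rats was 0.847.

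T cell genes differed between rats. Of 23 T cell genes 16 were called for rat, against 6.99% of all named genes. In the fit over 1 probe set per gene 20 were called, against 13.9%. The same shares of all named genes apply to the rat counts of the lists that follow. Cd247, the zeta chain of the T cell receptor, had a share of 0.983 with rat means from 9.61 to 10.54, and Lef1, a transcription factor of naive T cells, ran from 9.47 to 10.55. The list's mean was lowest in K11 and highest in K5. In bulk tissue, fewer cells of a type and less RNA per cell cannot be told apart.

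Proliferation genes varied likewise. Of 34 cell cycle genes 21 were called for rat, and 25 in the fit over 1 probe set per gene. Mki67, the proliferation marker, had rat means from 8.61 to 10.37, and Mcm5, part of the replicative helicase, from 8.15 to 9.25. The list mean was highest in K3, at 8.10 in its bled-side and 8.11 in its contralateral node, where the list medians over rats were 7.25 and 7.51. Fcer2, a low-affinity IgE receptor of B cells, ran from 9.67 to 11.28, and 8 of 19 B cell genes were called.

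Macrophage and haem genes separated rats as well. Of 24 macrophage genes 14 were called (19 over 1 probe set per gene), among them Mertk (0.890), a receptor for dying cells, and Folr2 (0.871), a marker of resident macrophages. Of 26 haem and iron genes 10 were called. Rat means of Hmox1 ran from 8.13 in K6 to 11.4 in K11 and those of Slc11a1, a metal transporter of phagosomes, from 7.19 to 9.78. Blvrb, a biliverdin reductase, ran from 7.89 to 9.16.

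Mast cell genes also separated rats. Of 14 mast cell and eosinophil genes 9 were called, with rat means from 2.93 to 6.63 for the protease Mcpt10 and from 7.72 to 9.86 for the tryptase Tpsb2. The mean of the list was 5.50 in the bled-side and 5.98 in the contralateral node of K8, against 6.10 to 7.00 in all nodes of the other 10 rats. Of 20 vessel genes 11 were called (Tek, a receptor for angiopoietins, share 0.925), of 13 glucocorticoid-responsive genes 8 (Fkbp5 0.897), and of 39 rat MHC genes 11 (RT1-CE5 0.888). Some lists had call rates near or below the 6.99% of all named genes, so nothing is read from their counts. Among antigen presentation genes 0 of 15 were called (median share between rats 0.599), and among muscle genes 1 of 15 (0.135). Among dendritic cell genes it was 1 of 17 (0.445) and among immediate-early genes 2 of 22 (0.224). Over 1 probe set per gene the same lists had 2, 1, 4 and 4 calls, against 13.9% of all named genes.

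What the nodes of bled rats had in common was then set against the sham nodes, with 1 value per rat. The mean of both nodes was higher than sham for 748 probe sets (2.04%) and lower for 860 (2.34%), and 50 rose and 1 fell at least 2-fold. Leaving out C2 and C9, 656 were higher and 1157 lower, and 1155 probe sets were called in both. The split depended on scaling: with each array centred on its median 941 were higher and 437 lower. Each bled rat entered as the mean of a left and a right node, and each sham rat as 1 right node. The groups thus differed in arrays per rat and in side of the body. With the right (contralateral) node only, 605 were higher and 532 lower.

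Lipg, endothelial lipase, was among the genes that rose in both nodes. It read 7.83, 9.42 and 10.49 in bled-side nodes and 8.48, 9.21 and 9.82 in contralateral nodes, against 7.04, 7.66 and 8.13 in sham nodes. The mean of both nodes exceeded every sham node in 11 of 11 rats, by 1.70 on average (SE 0.19, adjusted p = 0.00016). C3ar1, the receptor for complement C3a, rose by 1.43 and Cxcl14, a chemokine, by 1.34, each above all sham nodes in 11 of 11 rats. Within rats the side differences of these genes were 0.10, -0.29 and 0.13.

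Vsig4, a complement receptor of macrophages, rose by 1.69, and Cd163 by 1.24 (adjusted p = 0.0080). Of 24 macrophage genes 4 were called higher, 3 without C2 and C9, against 3.25% of named genes. At an unadjusted p under 0.05, 9 of the 24 were higher and 2 lower, and the list's median difference was 0.14. Pla2g2a (a secreted phospholipase) rose by 1.71, Serpina3n (a protease inhibitor of the acute phase) by 1.80, Sfrp4 (a Wnt antagonist) by 1.54 and LOC500161 by 1.34. LOC690781 had the largest difference, 2.66, but its adjusted p of 0.034 became 0.060 without C2 and C9. Hmox1 itself was not called (1.22, adjusted p = 0.054), with sham nodes from 8.40 to 9.94 inside the range of the bled rats.

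Metallothionein genes, which bind zinc and copper, rose together. Mt2A read 11.09, 12.40 and 13.53 in bled-side nodes and 10.79, 11.85 and 12.79 in contralateral nodes, against 9.84, 10.53 and 11.15 in sham nodes. It rose by 1.63 (SE 0.24, adjusted p = 0.0014), above every sham node in 10 of 11 rats. Mt1 rose by 0.77 (adjusted p = 0.010). These Mt2A values come from the brighter of 2 probe sets that the annotation gives to Mt2A. The dimmer one averaged 9.12 in bled-side and 8.56 in contralateral nodes, against 6.85 in sham nodes, and rose by 1.99 (adjusted p = 0.0036). Near-identical copies of these genes may share such probes, and which probe set reads the chromosome 19 gene was not tested. Between sides, Mt2A differed by 0.36 (0.06 to 0.65, unadjusted p = 0.021) on the brighter and by 0.56 (0.11 to 1.01, unadjusted p = 0.018) on the dimmer probe set. Neither was called, and 3 rats were lower on the bled side in each. The brighter Mt2A probe set was also in the list of glucocorticoid-responsive genes. Of those 13 genes 4 were higher than sham, also 4 without C2 and C9, against 3.25% of named genes. Their median difference was 0.34, and whether a metal or a glucocorticoid signal acted was not tested.

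The promoters of Mt1 and Mt2A are shown because metallothioneins are the textbook targets of a metal-sensing factor that binds metal response elements. The RefSeq windows on GRCr8 hold 300 bases, 250 before and 50 after the start, 5′ to 3′ on the gene's strand. Capitals mark the element's core, TGCACNC or TGCGCNC, on either strand. Mt1 lies at chr19:10832926-10833225 and Mt2A at chr19:10838659-10838958, both on the minus strand.
Mt1: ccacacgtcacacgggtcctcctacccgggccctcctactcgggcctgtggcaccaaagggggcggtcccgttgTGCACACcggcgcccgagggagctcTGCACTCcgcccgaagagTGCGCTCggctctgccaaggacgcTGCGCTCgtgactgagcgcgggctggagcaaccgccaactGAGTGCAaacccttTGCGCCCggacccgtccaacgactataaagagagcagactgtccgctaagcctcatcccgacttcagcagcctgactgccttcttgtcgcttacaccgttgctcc
Mt2A: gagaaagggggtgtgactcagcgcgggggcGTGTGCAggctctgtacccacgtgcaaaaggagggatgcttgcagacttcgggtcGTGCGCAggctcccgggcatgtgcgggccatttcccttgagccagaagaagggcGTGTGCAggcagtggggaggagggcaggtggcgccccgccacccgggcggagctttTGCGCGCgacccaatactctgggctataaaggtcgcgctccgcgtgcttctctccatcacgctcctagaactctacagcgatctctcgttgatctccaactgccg
The Mt1 window held 6 cores and the Mt2A window 4. At least 1 core stood in 24.2% of 33469 promoters of that length, and at least 4 in 0.439%. A match is a run of letters and not evidence of a bound site.

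Plasma cell genes rose most widely of all lists. Of 16 measured, 12 were higher in the nodes of bled rats, 11 without C2 and C9, against 3.25% of named genes. Sdc1 (syndecan-1, a surface marker of plasma cells) read 8.27, 8.70 and 9.31 in bled-side and 8.16, 8.72 and 9.09 in contralateral nodes, against 7.59, 7.98 and 8.23 in sham nodes, a rise of 0.75 (adjusted p = 0.00064). Fkbp11, a folding enzyme, rose by 0.98, Mzb1 by 0.87, Prdm1 (the plasma cell transcription factor) by 0.70 and Jchain (the joining chain of IgM and IgA) by 0.62. The list's median difference was 0.53, against -0.004 for all named genes, and its median between sides was -0.09.

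Clock genes also differed from sham on both sides. Of 17 measured, 8 rose and 1 fell, and the same counts held without C2 and C9. Of all named genes 3.25% rose and 2.37% fell. Bhlhe41, a repressor within the clock, rose by 0.77 (adjusted p = 0.00016), Nr1d1 by 0.67, Dbp by 0.63, and Ciart, Tef, Bhlhe40, Per2 and Per3 by 0.36 to 0.50. Bmal1, an activator of the clock, fell by 0.44. It read 8.12, 8.35 and 8.86 in bled-side nodes and 8.09, 8.30 and 8.71 in contralateral nodes, against 8.55, 8.78 and 8.95 in sham nodes. K2 was highest on either side, and Bmal1 also separated rats within the bled group (share 0.944). In bled-side against contralateral nodes Dbp differed by -0.24 (-0.41 to -0.07) and Nr1d1 by -0.18, neither called. Time of day of collection was not given, and its part was not tested.

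Ciart, a clock repressor, is shown because E-boxes (CACGTG, capitals, on either strand, a palindrome counted once) are the element through which the clock's activators act. Its 300-base RefSeq window lies on GRCr8 at chr2:186112197-186112496, minus strand.
Ciart: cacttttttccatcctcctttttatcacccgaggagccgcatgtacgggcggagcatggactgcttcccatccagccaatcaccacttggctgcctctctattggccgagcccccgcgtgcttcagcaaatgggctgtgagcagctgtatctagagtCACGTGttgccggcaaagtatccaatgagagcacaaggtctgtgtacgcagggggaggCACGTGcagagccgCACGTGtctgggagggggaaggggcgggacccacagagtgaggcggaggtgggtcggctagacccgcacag
It held 3 E-boxes. At least 3 stood in 0.0568% of all promoters and at least 1 in 6.42%. Of the other clock genes that rose, Bhlhe40, Bhlhe41, Tef and 1 of the Nr1d1 windows held 1, and the windows of Dbp, Per2 and Per3 none.

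Chemokine and interferon lists rose in part. Of all named genes 3.25% were called higher than sham, the share to set beside each count here. Of 33 chemokines 8 rose, including the T cell attractants Cxcl9 (0.77), Cxcl10 (0.74) and Ccl5 (0.55), and 6 without C2 and C9. Of 31 interferon-stimulated genes 8 rose, 5 without C2 and C9, with Irf7 (0.72), an interferon regulatory factor, and Ifitm3 (0.56), a viral entry inhibitor, called in both. Of 26 haem and iron genes 7 rose, 5 without C2 and C9, with Slc11a1 at 1.30, Lcn2 (an iron-siderophore binder) at 0.80 and Lrp1 (a receptor for haemopexin) at 0.76. Sele (E-selectin), an adhesion molecule of activated vessels, rose by 1.09 (adjusted p = 0.00078). Of 24 adipocyte genes 6 rose, 4 without C2 and C9. The adipocyte list mean was 7.23 to 8.54 in bled-side and 8.03 to 8.57 in contralateral nodes, against 7.27 to 8.42 in sham nodes. Its part in these differences was not tested.

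Of named genes 2.37% fell. Prg2, the major basic protein of eosinophils, fell by 0.97. It read 5.87, 6.52 and 7.62 in bled-side and 6.09, 6.81 and 7.13 in contralateral nodes, against 7.02, 7.82 and 7.97 in sham nodes. Of 14 mast cell and eosinophil genes 1 was called lower and 0 higher, with the same counts without C2 and C9. That list's median difference was 0.07, so nothing is read from Prg2 about the cell type. Spon2 fell by 0.65, below every sham node in 9 of 11 rats, and Rsrp1 by 0.58, below in 10. Foxred2, Dnmt3l, Spo11 and Trpm6 fell by 0.60 to 0.75, and Trpm6 lost its call without C2 and C9 (adjusted p = 0.060). Mirlet7f-1os, Mir342 and Mir19b2 fell by 0.99, 0.77 and 0.73, at intensities below 4.5 in bled rats. No T cell gene of 23 and no cell cycle gene of 34 was called by limma against sham. Only 3.25% of all named genes were called higher and 2.37% lower, so nothing is read from the lack of calls. The rat term, another test with 6.99% of named genes called, called 16 and 21 of them. At an unadjusted p under 0.05, 5 of these T cell genes were lower and 3 of these cell cycle genes higher in bled rats. Without C2 and C9 1 T cell gene was called lower and no cell cycle gene was called.

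**Figure D5:**
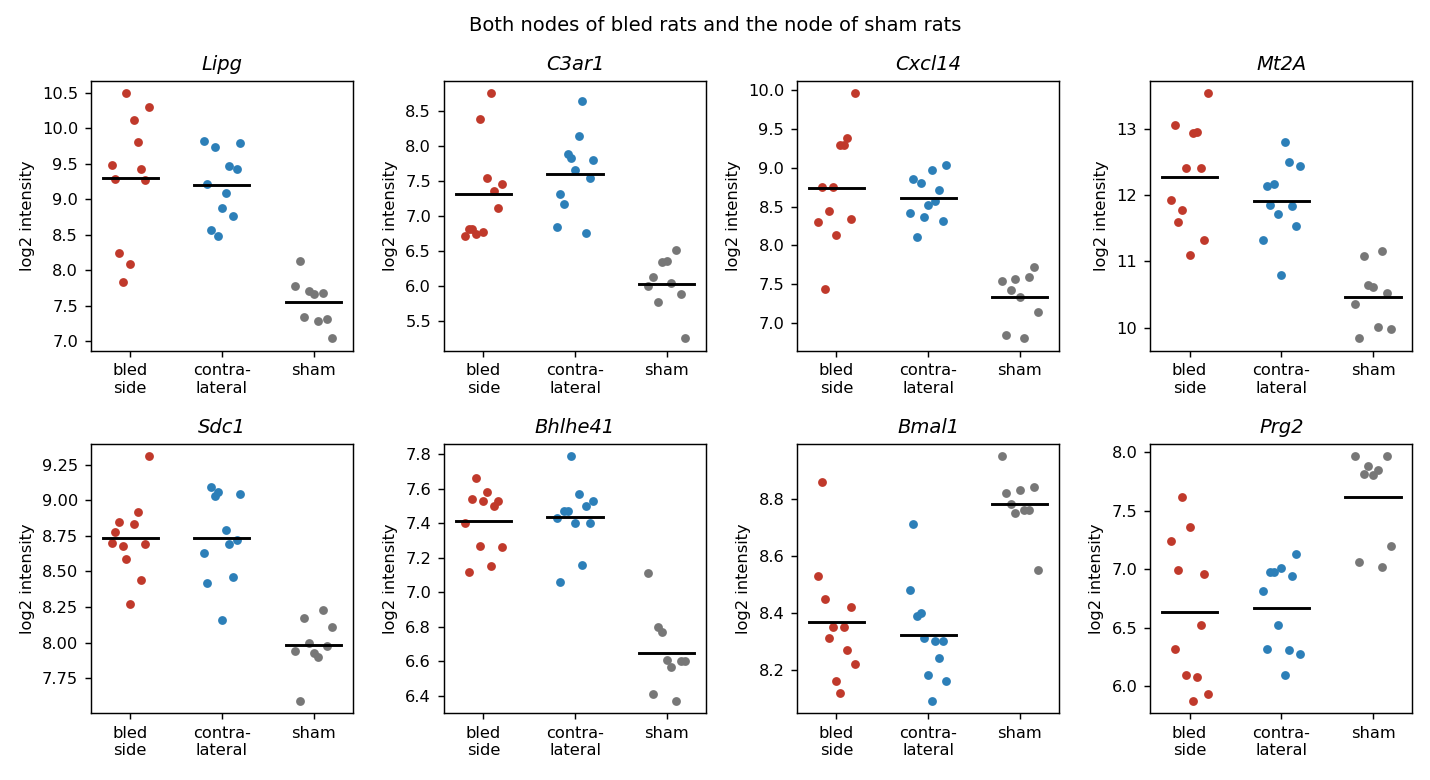
Log2 intensity of 8 genes in bled-side (n = 11), contralateral (n = 11) and sham (n = 9) nodes, points for nodes and bars for means. Lipg, C3ar1, Cxcl14, Mt2A, Sdc1 and Bhlhe41 sit higher and Bmal1 and Prg2 lower on both sides of bled rats than in sham rats.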

How the data were processed

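RNA of 60 rat tissue samples was measured on Affymetrix arrays. Per the submitters' processing notes, the authors made the deposited log2 values with RMA in Affymetrix Expression Console 1.4.46. Arrays have no read depth, and what limits precision was not tested. Symbols came from the platform annotation, with 18511 of 36685 probe sets carrying 1 symbol, 575 several and 17599 unlisted. The probe set with the highest mean over the 22 node arrays stood for a gene.

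The deposited log2 values were tested with limma 3.58.1 in R 4.3.3 over all probe sets, without a further filter, with Benjamini-Hochberg adjustment and calls at an adjusted p under 0.05. The side fit had rat as a fixed block, since titles give both nodes the same rat code; the correlation of own-pair deviations exceeded 0.1 in 11 of 11 pairs. The rat term was a moderated F test in that fit. Rat means were set against sham, and within-rat differences of node against knee. The share between rats is an intraclass correlation after removing group means. Alternatives covered the block, scaling, a filter on dim probe sets, the variance prior, array weights, the adipocyte mean and left-out rats. The scripts were tested on simulated data. Promoters are from RefSeq. Members and lists were chosen with earlier results of these data known. Named genes were the 5 smallest p each way for side, the 7 followed genes, up to 3 members per list, the 15 highest shares for rat with a range of at least 1, and the 10 largest called changes each way against sham.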

Additional observations from a re-analysis of the deposited data

Results flagged for a closer look

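The side difference of the node minus that of the knee was tested within rats and differed for all 7 followed genes. These genes were followed because they mark the bled joint, and all 7 were called higher in bled knees. Of all probe sets 31% were called in the same comparison, so nothing is read from the count of 7. It was -3.08 for Il1b, -5.52 for Il6, -0.42 for Tnf, -3.44 for Ccl2, -4.01 for Hmox1, -5.93 for Arg1 and -2.14 for Mmp3, on the log2 scale.

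The sham node of C9 stood far from the other 8. Its mean correlation with them was 0.960, with the next lowest at 0.976. The means of the plasma cell genes (8.52, next 8.77), the circadian clock genes (7.61, next 7.91) and the haem and iron handling genes (8.19, next 8.52) were lowest there. These 4 came from 28 sham values examined, all 4 rest on the same array and are not independent, and chance flags about 1 in 20. C9 was also lowest for lists outside the 28 values, such as B cell genes (9.41, next 9.91) and antigen presentation genes (10.52, next 10.61). It was not lowest for T cell genes or chemokines and was highest for skeletal muscle genes. Low values in C9 were thus not particular to the plasma cell, clock and haem lists. The counts without C2 and C9 stand beside each list that was set against sham, but not beside each single gene.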

How the results depend on the processing

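No probe set was called between sides under the 10 other settings, including no replicate block on 22 arrays (0 called, 35331 probe sets within 1.5-fold), the 3-group fit (0 and 34985) and rat as a random replicate block (0 and 35692). Leaving out 1 rat gave 0 to 2 calls. The 2 calls came without K4, on 2 probe sets with no single symbol and identical values (-0.36, adjusted p = 0.046). The count within 1.5-fold was 35341 to 35445 without 1 rat, 22073 of the 22565 probe sets with a mean of at least 5, and 18096 with 1 probe set per gene. The rat term called 1234 (without K3) to 1767 (without K5), 3130 above a mean of 5, 3069 with an intensity trend, 2522 with 1 probe set per gene and 1060 with the adipocyte mean as a covariate; the cause was not tested. The mean own-pair correlation was 0.222 to 0.245 without 1 rat, 0.350 above a mean of 5 and 0.372 with 1 probe set per gene. Against sham, 1003 (without C2) to 2986 (without C9) were called when 1 sham rat was left out, 2642 with rat as a random block and 1137 for the contralateral node alone. Only the 10 largest called changes each way against sham were followed through all 14 alternatives. Among these, LOC690781 lost its call in 8 of 14 alternatives, Trpm6 in 3 and Foxred2 in 1, and the other 17 in none. The remaining genes named against sham were not followed in this way. The unpaired node-knee comparison called 11930. None of the 7 followed genes was called between sides under any setting run. Bounds on probe sets below a mean of 5 rest on dim signal.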

Other observations

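Other secreted signals separated rats more than sides. Il12b, a subunit of interleukins that drive T helper responses, had rat means from 5.89 to 7.53 (share between rats 0.891), and Il33, an alarmin of stromal cells, from 10.59 to 11.62 (0.864). Both were called for rat, and their list had 6 of 20 genes called, against 6.99% of all named genes. Il33 was also higher in the nodes of bled rats than in sham nodes by 0.59 (limma adjusted p = 0.014), while Lta, lymphotoxin alpha, was lower by 0.45 (adjusted p = 0.034). Of the eosinophil and macrophage chemokines, Ccl24 ran from 8.05 to 9.83 and Ccl6 from 7.31 to 9.68 between rats.

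Of 18 immunoglobulin genes 5 were called for rat, against 6.99% of all named genes. Over 1 probe set per gene 6 were called, against 13.9%. Of the 18 measured, 15 had a side interval within 1.5-fold, with a median share between rats of 0.254. The mean of the list ran from 6.49 to 7.13 in bled-side and from 6.46 to 7.15 in contralateral nodes, and the largest gap between the nodes of 1 rat was 0.46.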
